A study of Homo sapiens with 12 samples.

Results

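Open chromatin was examined around 7 genes of the AP-1 family of transcription factors, FOS, FOSL1, FOSL2, JUN, JUNB, JUND and ATF3. The members were the ATAC-seq peaks that lay within 50 kb of these genes on hg19, 93 peaks in all, which merged into 42 of the 84664 regions of the whole series. ATAC-seq uses the Tn5 transposase, which cuts and tags accessible DNA, and a peak is a place with more tagged reads than the background. The peaks came from 3 libraries of ARPE-19, a line of retinal pigment epithelial cells that arose spontaneously and was grown in DMEM with serum, and from 3 libraries of H7, a line of human embryonic stem cells grown in mTeSR Plus. Each library was made from 500000 cells, the labels name no treatment or alteration of either line, and they give triplicates with no word on separate cultures. The p-values below therefore measure only the spread between these libraries, which may be technical. The 6 samples of chromatin contacts (4C) in the series were not analysed here. The title concerns TERT expression in development, and the accessibility data ask which regions are open in the epithelial line and which in the stem cells. The lines were not checked against marker genes, because gene models of hg19 were not used here beyond the 7 intervals.

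AP-1 is a dimer of proteins with a basic DNA-binding region and a leucine zipper. Proteins of the FOS family (FOS, FOSL1 and FOSL2) bind DNA only after pairing with a partner such as a JUN protein, while JUN proteins can also pair with each other, and ATF3 pairs with JUN proteins or with itself. The dimers bind the sequence TGA(C/G)TCA (the TPA response element) or the related TGACGTCA (the cyclic AMP response element). Serum, growth factors and stress quickly raise the transcription of FOS, JUN and ATF3. In many cultured adherent cells AP-1 sites make up a large part of the open distal regions.

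The stretches of 250 bases before the start are shown for JUN, FOSL2, JUND and ATF3. Every ARPE-19 library had a peak within 1 kb of the JUN, FOSL2 and JUND starts. No library had one within 1 kb of the start of the ATF3 interval, and the ATF3 stretch holds the same AP-1 type site as JUN. Whether such a site bears on the calls was not tested. The stretches are RefSeq sequences of GRCh38.p14, read 5′ to 3′ along the gene. Capitals mark a match to TGANTCA, TGACGTCA or TGACATCA on either strand.
JUN, chr1:58784048-58784297, minus strand: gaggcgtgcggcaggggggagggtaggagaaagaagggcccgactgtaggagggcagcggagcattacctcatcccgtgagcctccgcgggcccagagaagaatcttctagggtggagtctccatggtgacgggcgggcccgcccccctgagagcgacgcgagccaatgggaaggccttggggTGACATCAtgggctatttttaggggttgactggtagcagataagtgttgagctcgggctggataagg
ATF3, chr1:212565157-212565406, plus strand: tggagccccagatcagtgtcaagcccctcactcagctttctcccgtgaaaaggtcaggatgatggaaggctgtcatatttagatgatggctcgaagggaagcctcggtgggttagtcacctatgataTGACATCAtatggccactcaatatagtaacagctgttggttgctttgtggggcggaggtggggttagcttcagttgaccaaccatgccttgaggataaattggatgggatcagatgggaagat
JUND, chr19:18281623-18281872, minus strand: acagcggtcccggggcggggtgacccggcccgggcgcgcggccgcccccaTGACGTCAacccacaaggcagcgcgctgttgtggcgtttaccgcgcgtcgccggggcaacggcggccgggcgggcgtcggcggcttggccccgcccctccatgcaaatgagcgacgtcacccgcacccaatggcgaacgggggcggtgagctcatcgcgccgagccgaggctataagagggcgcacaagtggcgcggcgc
FOSL2, chr2:28392608-28392857, plus strand: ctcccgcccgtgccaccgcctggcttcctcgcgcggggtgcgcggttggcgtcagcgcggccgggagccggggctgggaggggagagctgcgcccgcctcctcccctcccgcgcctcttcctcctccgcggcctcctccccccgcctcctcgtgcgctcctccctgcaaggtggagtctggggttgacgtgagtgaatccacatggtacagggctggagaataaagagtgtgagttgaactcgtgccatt
JUN and ATF3 each held the site TGACATCA, at base -67 from the JUN start and at base -123 from the ATF3 start. JUND held TGACGTCA at base -200. FOSL2 had no match before its start, and a TGACTCA began at base 5 of the transcript. Among 35116 RefSeq promoters of 300 bases, which reach 50 bases past the start, 2.61% held TGACATCA, 1.85% held TGACGTCA and 7.71% held TGANTCA on either strand. N stands for any base, so TGANTCA is wider than the TPA response element. The promoters of FOS and JUNB held none of the 3 motifs in this window, and neither did a second ATF3 promoter of the table. The gene intervals on hg19 and in RefSeq differ in length by 14 to 191 bases for 6 of the genes and by 2722 bases for FOSL2, so the starts may not match to the base.

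The lists held 40110 to 48460 peaks in ARPE-19 and 8622 to 15351 in H7, a 3.53-fold higher mean in ARPE-19. The lists give no read totals. The background that the caller used genome-wide, recovered from each list as a measure of relative depth, was 0.425 to 0.483 expected reads per position in ARPE-19 and 0.592 to 0.653 in H7. At that background the weakest peak called had 4 summit reads in ARPE-19, or 8.28 to 9.41 times the background, and 5 to 6 summit reads in H7, or 7.66 to 9.48 times. A missing peak therefore means that the signal stayed under about that level, or under a higher one where the local background was raised, and not that the chromatin was closed. In a bulk library a weaker opening and an opening in fewer cells cannot be told apart. The member peaks had 5 to 34 summit reads, with a median of 11, so each rests on few reads and carries a large counting error.

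More peaks were called around the AP-1 genes in ARPE-19 than in H7, in about the same proportion as over the whole lists. ARPE-19 replicates 1, 2 and 3 had 28, 18 and 28 peaks in the 7 windows, and H7 replicates 1, 2 and 3 had 3, 9 and 7. The mean was 24.7 ± 5.77 for ARPE-19, against 6.33 ± 3.06 for H7 (SD, n = 3 each), a 3.89-fold difference with a log2 ratio of 1.96. As a share of the list, the windows held 0.0552% ± 0.0093 of the ARPE-19 peaks, against 0.0555% ± 0.032 of the H7 peaks (SD, n = 3 each), a log2 ratio of -0.0065. Among peaks with a -log10 q of at least 5 that log2 ratio was -0.74, a lower share in ARPE-19. The pooled SD of the log2 shares between libraries was 0.34 there, and no test was run. The like proportion therefore holds for the full lists. The ARPE-19 peaks covered 7924 ± 1958 bases, against 1699 ± 653 for the H7 peaks (SD, n = 3 each). The median window held 3.67 peaks per ARPE-19 library and 1 per H7 library, against 1.33 and 0.333 in the median 100 kb bin of the genome that holds a peak. The windows are 102 to 155 kb long, so all are longer than these bins. They count every peak that overlaps them, while the bins count peaks by summit. In 5 of the 6 libraries the member peaks ranked below the middle of their list. Their median percentile of -log10 q was 29.7, 39.9 and 44.7 in ARPE-19 replicates 1, 2 and 3, and 80.8, 30.4 and 47.9 in H7 replicates 1, 2 and 3.

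Of the 42 regions, 9 were ARPE-19-only, which means that all 3 ARPE-19 libraries and no H7 library had a peak. That is 21.4%, where 26.0% of all merged regions were of this kind. None was H7-only, a class that takes up 1.82% of all regions. A peak in all 6 libraries was found in 2 regions, or 4.76%, where the share over all regions was 1.82%. Another 6 had peaks in both lines but not in every library, 14.3% against 6.69% of all regions. A call in 1 or 2 ARPE-19 libraries alone was found in 22, or 52.4% against 43.2%. A call in 1 or 2 H7 libraries alone was found in 3, or 7.14% against 20.4%. A call in a single library accounted for 20 regions, 47.6% against 46.4% of all regions. The ARPE-19-only regions were spread unevenly, with 5 at ATF3, 2 at JUN, 2 at FOSL2 and 0 at the other 4 genes.

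**Figure D1:**
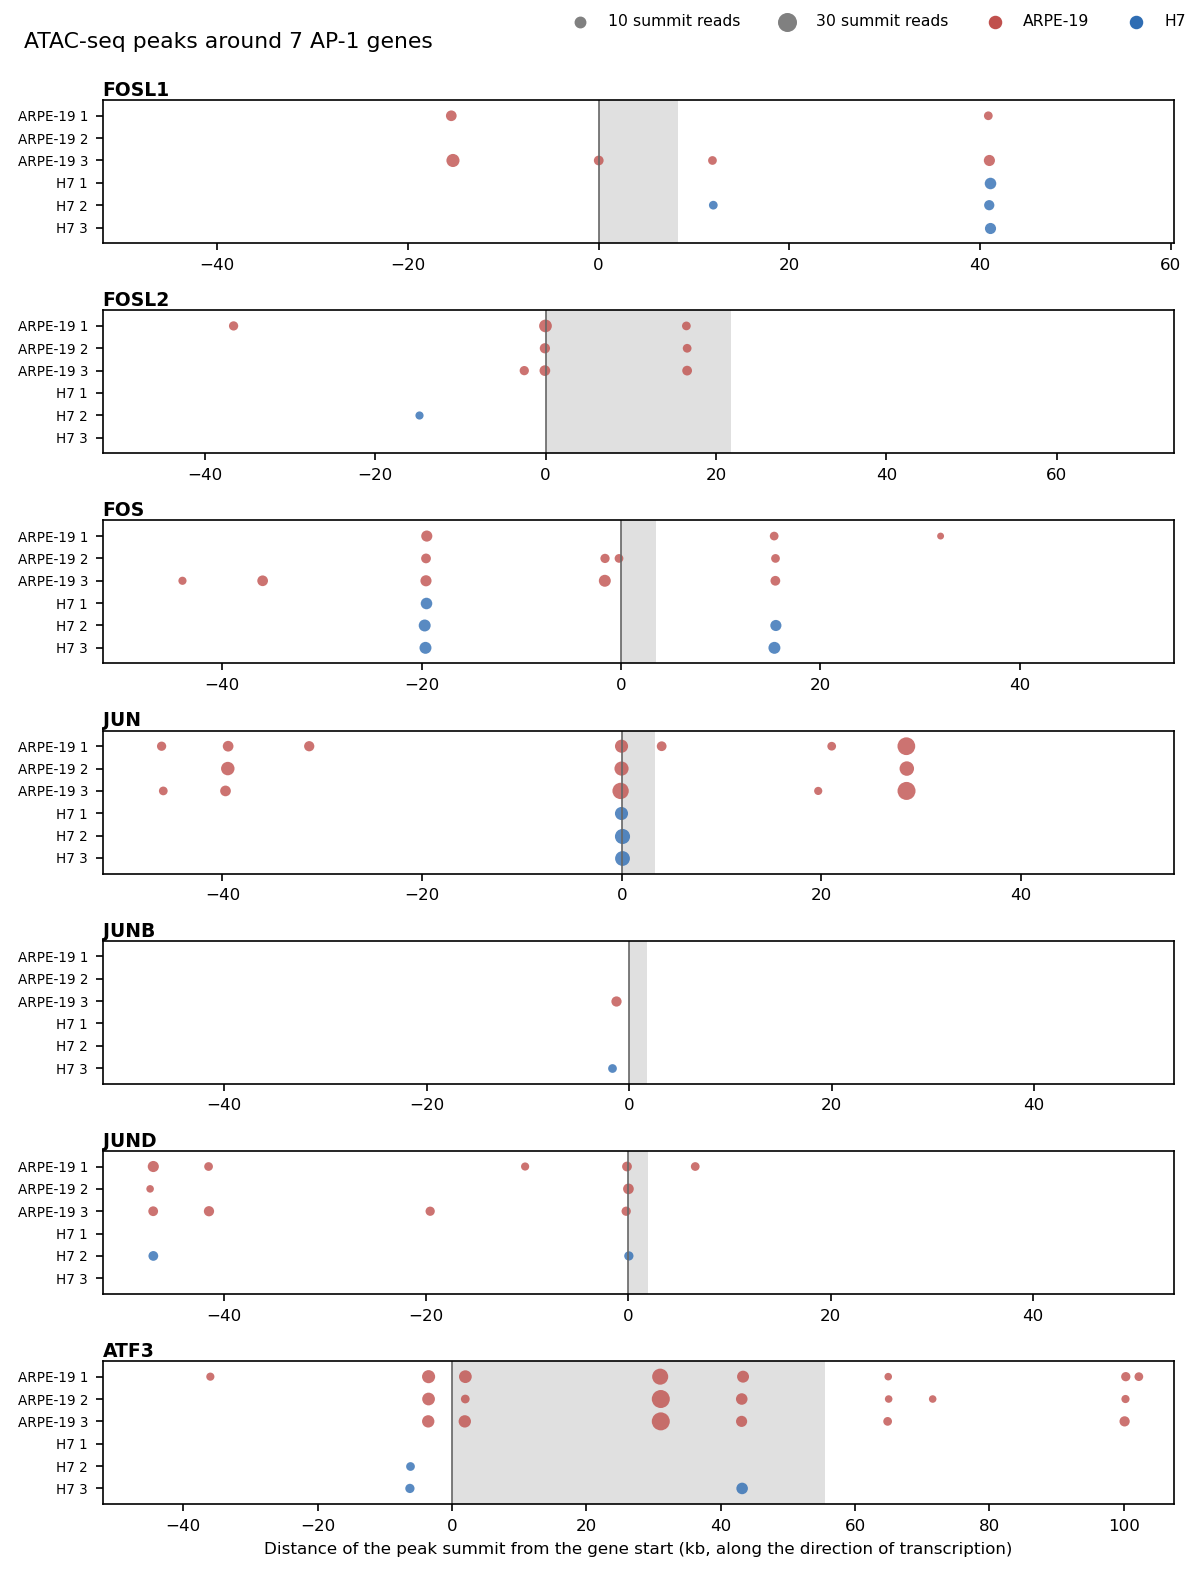
Summits of the 93 peaks around each gene, with the distance from the gene start in kb along the direction of transcription on the horizontal axis and 1 row per library, ARPE-19 above H7. Dot size is the number of summit reads and the grey band is the gene; the largest dots are the ARPE-19 peaks 28.4 kb past the JUN start and 31.0 kb past the ATF3 start, and the JUN start carries a dot in all 6 rows.

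In 4 of the 7 windows every ARPE-19 library had more peaks than every H7 library, where 41.7% of all 100 kb bins that hold a peak were apart in that direction. In 0 windows was it the other way, against 2.07% of the bins. A bin counts only if every library of 1 line has a peak there, so sparse bins rarely count. The median bin held 6 peaks over the 6 libraries, while the windows held 2 at JUNB and 9 to 24 at the other genes. The bins are thus not a like background. With 3 libraries against 3, the smallest p of the exact two-sided permutation test is 0.1, so no gene could pass 0.05. The ATF3 window had the most peaks, 8, 7 and 6 in ARPE-19 replicates 1, 2 and 3, and 0, 1 and 2 in H7 (exact permutation p = 0.1). It is also the longest window. JUN followed with 7, 3 and 5 peaks in ARPE-19 and 1 in each H7 library (exact permutation p = 0.1). Within 10 kb of JUN its mean difference of 4 peaks became 0.333 (exact permutation p = 1). FOS had 3, 4 and 5 in ARPE-19 against 1, 2 and 2 in H7 (exact permutation p = 0.1). Its mean difference of 2.33 peaks became 0.333 among peaks with a -log10 q of at least 5 (exact permutation p = 1) and 1 within 10 kb (exact permutation p = 0.4). FOSL2 had 3, 2 and 3 in ARPE-19 against 0, 1 and 0 in H7 (exact permutation p = 0.1). The lines overlapped at the other 3 genes. JUND had 5, 2 and 4 peaks in ARPE-19 and 0, 2 and 0 in H7 (exact permutation p = 0.2). FOSL1 had 2, 0 and 4 in ARPE-19 and 1, 2 and 1 in H7 (exact permutation p = 0.8), and without ARPE-19 replicate 3 its mean difference of ARPE-19 from H7 was -0.333 peaks in place of 0.667. JUNB had 0, 0 and 1 in ARPE-19 and 0, 0 and 1 in H7 (exact permutation p = 1). In the order of ARPE-19 means, ATF3 (7 ± 1), JUN (5 ± 2), FOS (4 ± 1), JUND (3.67 ± 1.53), FOSL2 (2.67 ± 0.577), FOSL1 (2 ± 2) and JUNB (0.333 ± 0.577, SD, n = 3), each gene overlapped its neighbours in the order.

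**Figure D2:**
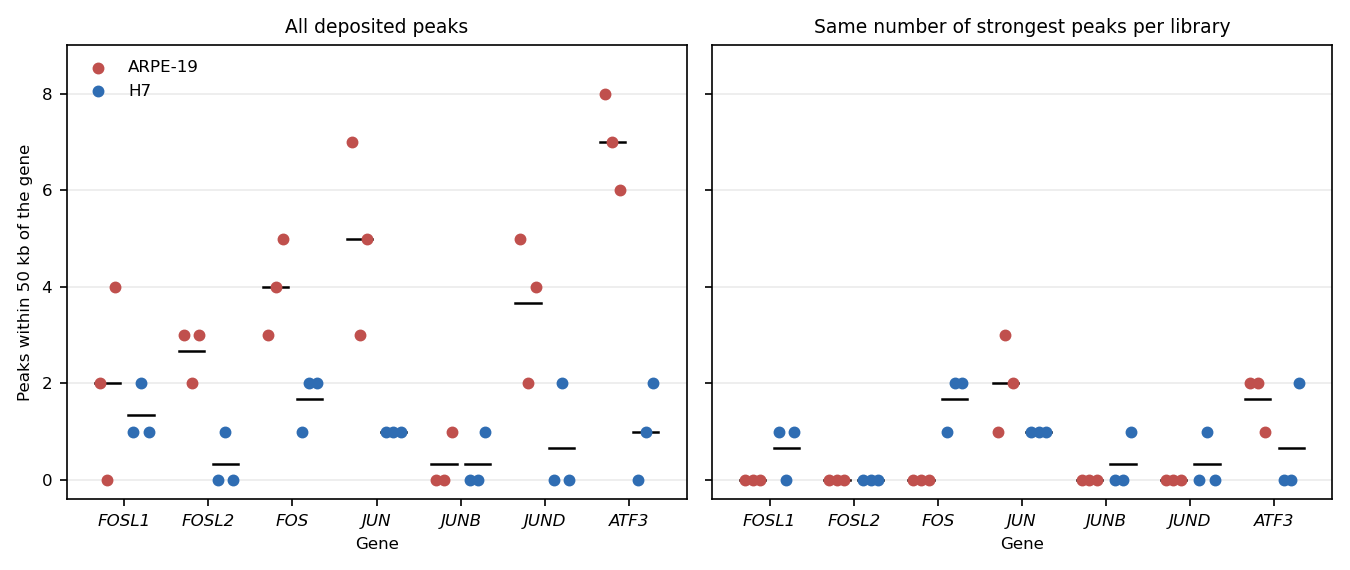
Peaks within 50 kb of each gene, with the genes on the horizontal axis and the number of peaks on the vertical axis; points are libraries, ARPE-19 left of H7, and lines are means. With all deposited peaks the points of the lines are apart at FOSL2, FOS, JUN and ATF3 with ARPE-19 above; with the 8622 strongest peaks of every library they are apart at FOS with H7 above.

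FOS encodes the founding member of the family, an immediate early gene whose transcription rises briefly after stimulation. Its window held 7 regions, and the one shared by all 6 libraries lay upstream of the gene and not at its start. This region, chr14:75725659-75726207 on hg19, had its middle 19.5 kb before the start. It had 13, 10 and 13 summit reads in ARPE-19 replicates 1, 2 and 3, and 14, 15 and 15 in H7 replicates 1, 2 and 3. Divided by the genome-wide background of the library, these were 26.9, 21.8 and 30.6 in ARPE-19 and 21.4, 25.3 and 23.7 in H7. The values of the lines overlapped, and the 6 summits fell within 209 bases. Within its list the region stood higher in H7 than in ARPE-19, in lists of different length: its percentile of -log10 q was 51.6 to 62.7 in ARPE-19 and 80.8 to 83.0 in H7.

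A second FOS region shared by the lines, chr14:75760769-75761111, lay 15.5 kb past the start. It was called in 3 of 3 ARPE-19 libraries with 8, 8 and 10 summit reads and in H7 replicates 2 and 3 with 13 and 15. No peak was called there in H7 replicate 1. The FOS start itself had a call in 1 library. The 1 peak there, in ARPE-19 replicate 2, had 8 summit reads and stood at percentile 20.9, and its summit lay at base -206 from the start. Closest to it was chr14:75743703-75743968, 1.65 kb before the start, with 9 and 15 summit reads in ARPE-19 replicates 2 and 3 and no H7 peak. The other 3 regions of the window were each called in a single ARPE-19 library.

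FOSL1 encodes FRA1, a FOS protein that is abundant in many growing cultured cells. No region of its window was called in all 3 ARPE-19 libraries, and ARPE-19 replicate 2 had no peak closer than 151486 bases to its start. The start carried 1 peak, in ARPE-19 replicate 3, of 10 summit reads with the summit at 7 bases past the start. Upstream, chr11:65683207-65683484 at 15.3 kb had 12 and 18 summit reads in ARPE-19 replicates 1 and 3 and no H7 peak. The region called in the most libraries, chr11:65626800-65627350, lay 40.9 kb past the start and beyond the end of the gene. It had 8 and 13 summit reads in ARPE-19 replicates 1 and 3 and 14, 11 and 13 in H7 replicates 1, 2 and 3. It was thus 1 of 3 regions of the whole set called in every H7 library, with the JUN start and the upstream FOS region. These make up 7.14% of the 42, where 4.02% of all merged regions had a peak in every H7 library. RefSeq lists 10 other protein-coding genes within 50 kb of FOSL1 on GRCh38.p14, among them CFL1, MUS81 and DRAP1, so a peak in this window need not belong to FOSL1. The last region, 11.9 kb past the start, had 8 summit reads in ARPE-19 replicate 3 and 8 in H7 replicate 2.

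FOSL2 encodes FRA2. Both regions called in more than 1 library were ARPE-19-only, 1 at the start and 1 inside the gene. The start region, chr2:28615490-28615825, had 17, 11 and 12 summit reads in ARPE-19 replicates 1, 2 and 3, which is 35.2, 24.0 and 28.2 times the background, and no peak in H7. Its summits lay at bases -24, -93 and -95 from the start in ARPE-19 replicates 1, 2 and 3. The nearest H7 peaks were 14729 bases from the start in replicate 2 and 477339 and 232502 bases from it in replicates 1 and 3. The region inside the gene, chr2:28632165-28632476 at 16.5 kb, had 8, 8 and 10 summit reads in ARPE-19. These are weak peaks, at percentiles 12.7 to 36.9 of their lists. The remaining 3 regions were each called once, 2 of them in ARPE-19 and 1, 14.8 kb upstream, in H7 replicate 2.

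JUN encodes a partner with which FOS proteins bind DNA, and its own promoter is a known target of AP-1. Its start was the only one of the 7 with a peak in all 6 libraries. The region, chr1:59249617-59250107, reached from base -322 to base 168 around the start, over the stretch that in RefSeq holds the TGACATCA shown above. It had 18, 21 and 28 summit reads in ARPE-19 replicates 1, 2 and 3, and 18, 24 and 23 in H7 replicates 1, 2 and 3. Over the genome-wide background these were 37.3, 45.9 and 65.9 in ARPE-19, with a mean of 49.7 ± 14.7, and 27.6, 40.5 and 36.3 in H7, with a mean of 34.8 ± 6.62 (SD, n = 3 each). The values overlapped between the lines. Within the lists the start stood at percentiles 65.9, 80.3 and 88.9 in ARPE-19 and at 90.0, 97.7 and 96.5 in H7. All 6 summits fell within 107 bases, from base -110 to base -3. The peaks were wider in ARPE-19, with 412, 415 and 446 bases, than in H7, with 364, 303 and 262 bases, and ARPE-19 peaks had the greater median width over the lists as well, 261 to 275 bases against 224 to 229.

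The strongest region of the JUN window by mean percentile was not at the gene. It lay 28.4 kb past the start, beyond the end of the gene, at chr1:59221058-59221688. It had 33, 22 and 34 summit reads in ARPE-19 replicates 1, 2 and 3, which is 68.3, 48.0 and 80.0 times the background, and no peak in any H7 library. At percentiles 97.3, 87.6 and 97.0 it was among the strong peaks of each ARPE-19 list, 517 to 631 bases wide, with its summits within 45 bases. A second ARPE-19-only region lay 39.6 kb upstream, at chr1:59289140-59289622, with 12, 19 and 12 summit reads in ARPE-19 replicates 1, 2 and 3. Another region, 46.1 kb upstream, had 9 and 8 summit reads in ARPE-19 replicates 1 and 3. The other 4 regions were called in 1 ARPE-19 library each, 3 of them in replicate 1. No protein-coding gene other than JUN lies within 50 kb in RefSeq, where JUN-DT, a divergent transcript, is among the neighbours.

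JUNB, an AP-1 protein that pairs with FOS proteins and is often weaker than JUN as an activator, stood apart by its lack of peaks. The window held 2 peaks over the 6 libraries, in different places and libraries. The first, 1.34 kb before the start, had 11 summit reads in ARPE-19 replicate 3. The second, 1.67 kb before the start, had 8 summit reads in H7 replicate 3, at percentile 3.21 of its list. In the other 4 libraries the nearest peak was 54174 to 54272 bases away. That is 1.96 peaks per 100 kb, and 11.0% of all 100 kb bins with a peak held no more than this. Bins with exactly 2 peaks are left out of that share. This is a window dense in genes, with 8 other protein-coding genes in RefSeq, PRDX2 and RNASEH2A among them. In 300 bases of RefSeq promoter the GC content was 71.0% at JUNB and 48.0% and 46.3% at the 2 listed for ATF3. JUNB and ATF3 are the genes with no peak within 1 kb of the start of the interval. The GC content was 62.0% to 77.0% at JUN, FOSL2 and JUND, whose starts were called in every ARPE-19 library. At FOS, whose start was called in 1 ARPE-19 library, it was 64.7%. FOSL1, also called in 1 ARPE-19 library at its start, has no GC value because the RefSeq promoters used do not list it. Whether GC content bears on the calls was not tested.

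JUND, the JUN protein that is widely present in resting cells, was called at its start in every ARPE-19 library and in 1 of the 3 from H7. The region, chr19:18392275-18392868, had 10, 12 and 9 summit reads in ARPE-19 replicates 1, 2 and 3, or 20.7, 26.2 and 21.2 times the background, and 9 in H7 replicate 2, or 15.2 times. The H7 value was below the 3 of ARPE-19. The peaks were weak in each list, at percentiles 18.5 to 45.3 in ARPE-19 and 16.8 in H7. The only other region called in all 3 ARPE-19 libraries lay 47.1 kb upstream, at chr19:18439357-18439840. It had 13, 6 and 10 summit reads in ARPE-19 and 10 in H7 replicate 2. RefSeq lists 4 other protein-coding genes within 50 kb of JUND, LSM4 among them. A region 41.6 kb upstream was called in ARPE-19 replicates 1 and 3, and 3 more in 1 ARPE-19 library each.

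ATF3 encodes a stress-induced factor that is known to repress as well as activate, and it is transcribed from more than 1 start. Its window held 10 regions, of which 5 were ARPE-19-only. The strongest lay inside the gene, 31.0 kb past the start of the interval, at chr1:212769304-212769986. It had 27, 34 and 34 summit reads in ARPE-19 replicates 1, 2 and 3, or 55.9, 74.2 and 80.0 times the background, and no H7 peak. At percentiles 93.8, 97.7 and 96.4 it was, with the region past JUN, the strongest of the set in ARPE-19. Next to the start were 2 more ARPE-19-only regions. The one 3.53 kb upstream, chr1:212734874-212735414, had 18, 17 and 16 summit reads, and the one 1.77 kb past the start, chr1:212740178-212740718, had 17, 8 and 16. They flanked the start of the interval, and no library had a peak within 1 kb of it. This holds for that start only, not for the other starts of ATF3. The nearest peak lay 1502 to 1869 bases from the start of the interval in the ARPE-19 libraries, against 6029 to 72628 in the H7 libraries.

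One region inside ATF3 was called in both lines. At chr1:212781647-212782189, 43.2 kb past the start of the interval, ARPE-19 replicates 1, 2 and 3 had 15, 14 and 13 summit reads and H7 replicate 3 had 14. Over the background these were 31.1, 30.6 and 30.6 in ARPE-19 and 22.1 in H7 replicate 3. The second ATF3 promoter in RefSeq, chr1:212614768-212615017 on GRCh38.p14, lies further past the first promoter than this region lies past the start of the interval. Whether the region lies over another inner start of ATF3 was not analysed here, since transcripts of hg19 were not used. The other 2 ARPE-19-only regions were weak and lay past the end of the gene, 65.0 and 100.2 kb from the start, with 6 to 8 and 7 to 11 summit reads. H7 had a region of its own 6.31 kb upstream, chr1:212732086-212732647, with 8 and 9 summit reads in replicates 2 and 3, no peak in replicate 1 and none in ARPE-19. The other 3 regions were called in 1 ARPE-19 library each.

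**Figure D3:**
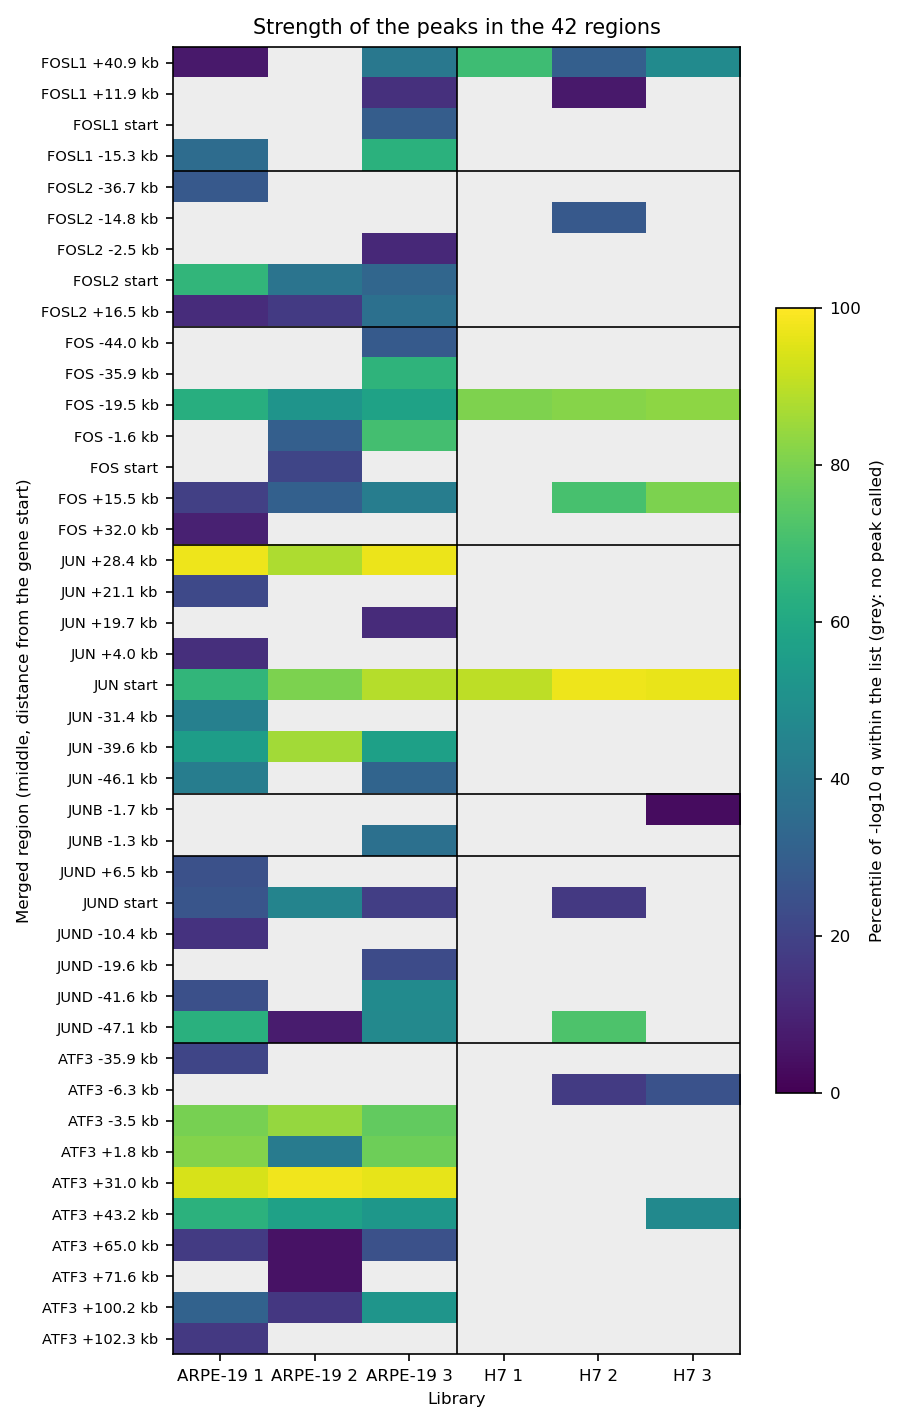
Percentile of -log10 q within its list (colour) for the 42 regions (rows, named by gene and by the distance of the middle from the gene start) in the 6 libraries (columns, ARPE-19 left of H7); grey means that no peak was called. The JUN start and the region 19.5 kb before FOS are the 2 rows filled in all columns, and 2 rows with ARPE-19 percentiles of at least 87.6, past JUN and inside ATF3, are grey throughout H7.

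The starts of the 7 genes differed in their calls over the 6 libraries. A peak within 1 kb of the start was called in all 6 libraries at JUN, in the 3 ARPE-19 libraries and H7 replicate 2 at JUND, in the 3 ARPE-19 libraries alone at FOSL2, in a single ARPE-19 library at FOSL1 and at FOS, and in none at JUNB and ATF3, the only 2 genes with the same pattern. At ATF3 the start of the interval alone was counted, not its other starts. Thus 3 of 7 starts were called in every ARPE-19 library and 1 of 7 in every H7 library. The share of starts called over all genes was not computed, since hg19 gene models were not used here, so these counts have no background to be read against.

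The higher number of peaks in ARPE-19 did not remain when every library gave its 8622 strongest peaks, the length of the shortest list. The windows then held 3, 5 and 3 peaks in ARPE-19 replicates 1, 2 and 3, and 3, 4 and 7 in H7 replicates 1, 2 and 3, a log2 ratio of -0.35. Of the 42 regions, 13 were still called in any library, while the merged regions of the whole lists numbered 27318 in place of 84664. The 2 ARPE-19-only regions among them were the one 28.4 kb past the JUN start and the one 31.0 kb inside ATF3, in 3 of 3 ARPE-19 lists each, where 14.7% of all merged regions of the equal lists were ARPE-19-only. The region 19.5 kb before FOS became H7-only, a class of 6.73% of the regions, since it was called in 3 of 3 H7 lists and in 0 of 3 ARPE-19 lists. The FOS window as a whole turned round, with 0 peaks in each ARPE-19 library and 1, 2 and 2 in H7 (exact permutation p = 0.1). Over all bins with a peak in the equal lists, 9.68% were apart with H7 above and 14.0% with ARPE-19 above. The JUN start was called in ARPE-19 replicates 2 and 3 and in all 3 H7 lists. No peak was left at the starts of FOSL2 and JUND.

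The signal itself was tested where every library had a peak, which holds for 1538 nuclear regions of the genome and for 2 of the 42. With limma on the log2 of summit reads over the genome-wide background, the JUN start had a log2 ratio of ARPE-19 over H7 of 0.49 (SE 0.25, adjusted p = 0.0736 over the 1538 regions). The region 19.5 kb before FOS had a log2 ratio of 0.16 (SE 0.28, limma adjusted p = 0.614). Neither passed 0.05, while 67.9% of the 1538 regions were higher in ARPE-19 at that threshold and 0.910% were higher in H7. The median ratio over all 1538 regions was 0.89, so on this scale ARPE-19 was the higher line in most regions. Both AP-1 regions lay in the lower part, with 27.1% of the regions below the JUN start and 13.6% below the FOS region. When each library was centred on its own median over these regions, both signs turned. The FOS region then fell in ARPE-19 relative to H7, with a log2 ratio of -0.74 (limma adjusted p = 0.0130), and the JUN start had -0.41 (limma adjusted p = 0.127). Without ARPE-19 replicate 1 the uncentred ratio of the JUN start was 0.68 (limma adjusted p = 0.0309), and over all alternatives its adjusted p ranged from 0.0309 to 0.365. Which scale is the right one was not tested, and a call in all 6 libraries selects regions that are strong in both lines.

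**Figure D4:**
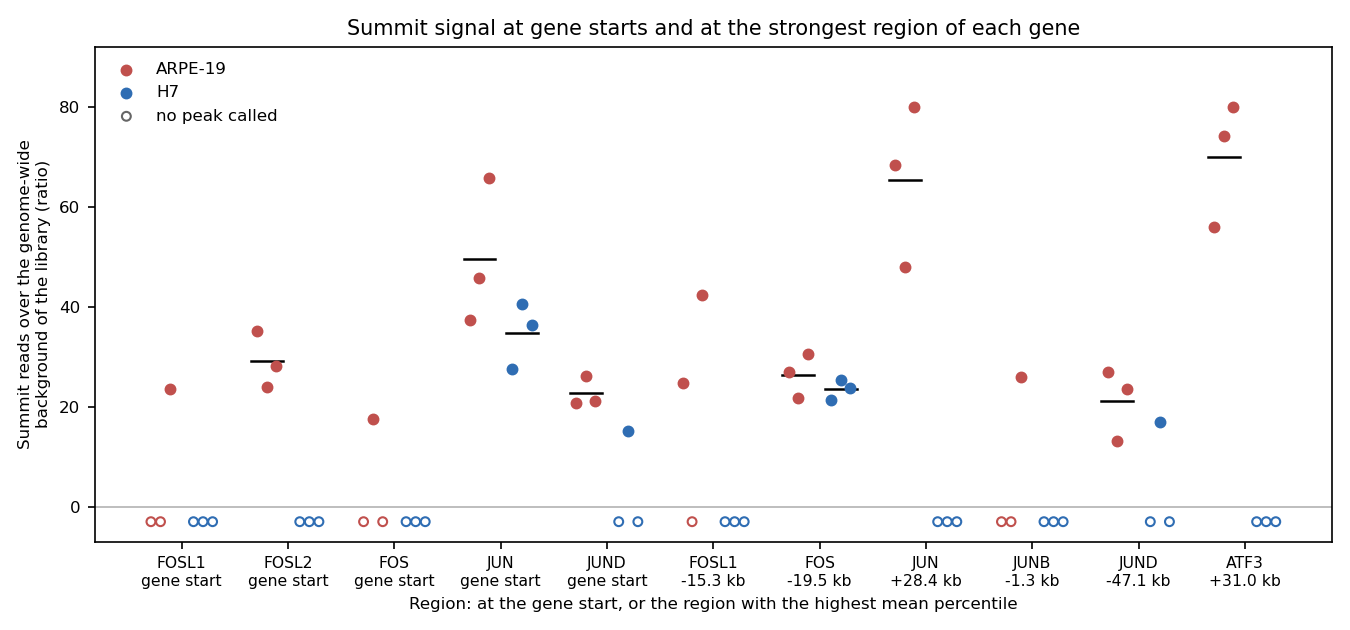
Summit reads divided by the genome-wide background of the library (vertical axis, a ratio) at the 5 gene starts with a peak and at the region with the highest mean percentile of each gene, ARPE-19 left of H7; filled points are libraries, lines are means where all 3 libraries have a peak, and open circles below 0 are libraries with no peak called and hence no value. The points of the lines overlap at the JUN start and 19.5 kb before FOS, while the regions 28.4 kb past JUN and 31.0 kb inside ATF3 reach 80.0 in ARPE-19 and have no peak in H7.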

How the data were processed

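ATAC-seq peak lists of 6 libraries, 3 of ARPE-19 and 3 of H7, were analysed. Per the submitters' processing notes peaks of hg19 were made with tools that include MACS2 and bedtools; the aligner, read shift and treatment of duplicates are not given in the sources used here. The deposited lists give, per peak and library, a position, a score, a fold enrichment (a ratio of summit reads to the background around them), and -log10 values of p and q, as the authors' caller gave them, with no q above 0.05. An unshifted read would move a summit by a few bases.

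The members and lists were chosen with earlier results of these data known. Windows reached 50 kb past each gene interval. Peaks of any libraries that overlapped by 1 base were merged. A gene start was the 5′ end of the interval ± 1 kb, with the strand from the RefSeq table and, for FOSL1, from general knowledge. All 7 genes are named, with the regions at the start, the strongest region, the regions of all 6 libraries and every H7-only region; others were added to account for each member. Summit reads and background were solved from the fold, (reads + 1)/(background + 1), and from p, a Poisson tail, and met the deposited -log10 p within 0.001 in 100% of nuclear peaks. The steps were tested on simulated data. There limma found 63% of 200 regions changed by 1 on the log2 scale, so it can miss real differences. It called 0.374% of the unchanged regions. The simulation changed 200 of the 1538 regions, while limma called 68.9% of them in the data, so both shares may differ there. The number of peaks per gene was compared by exact two-sided permutation over all 20 assignments; totals over the genes have no test. Signal was fitted with limma 3.58.1 (trend, R 4.3.3) and Benjamini-Hochberg adjustment over 1538 regions. Figures were drawn with matplotlib 3.10.9, and scipy 1.17.1, numpy 2.4.6 and pandas 2.3.3 ran under Python 3.11.15. Alternatives were other window sizes, thresholds, overlaps and centring, lists of equal length, a replicate block and leaving out each library. By the labels, same-numbered libraries of the lines share only a number. Counting error alone is covered by the reads given, which may include duplicates.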

Additional observations from a re-analysis of the deposited data

How the results depend on the processing

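A missing call bounds the signal at the depth of its library. With lists of equal length the log2 ratio of ARPE-19 over H7 was -0.35 for peaks in the windows and 0.54 for covered bases (1.96 and 2.22 with all peaks), 0 windows were apart with ARPE-19 above, 0 starts were called in all 3 from ARPE-19, and there were 2 ARPE-19-only regions, 1 H7-only region and 0 regions of all 6 libraries. The mean peak number of ARPE-19 minus H7 then turned to -0.667 at FOSL1, -1.67 at FOS and -0.333 at JUND. This setting shortened every ARPE-19 list and also those of H7 replicates 1 and 2, and the share of each in these values was not separated. With 10 kb on each side 2 windows were apart and 1 region was in all 6 libraries, and with 100 kb there were 17 ARPE-19-only regions and 5 in all 6. Requiring overlap of 50% left 1 region in all 6, and 2 of 3 libraries against 0 of 3 gave 1 H7-only region, the one 6.31 kb before ATF3. For all regions tested by limma, median centring gave 618 calls, 306 with ARPE-19 higher and 312 with H7 higher, and a -log10 q of at least 5 gave 510, 506 and 4, against 1059, 1045 and 14. Centring turned the FOS region to -0.74 and the JUN start to -0.41; the cause was not tested. Leaving out each library gave log2 ratios of 1.62 to 2.30 for peaks, 1.94 to 2.46 for covered bases and -0.41 to 0.37 for the share of peaks, 9 to 12 ARPE-19-only regions, 0 to 1 H7-only regions (1 without H7 replicate 1), 2 to 3 regions of all 6, 4 to 5 windows apart, 3 starts in ARPE-19 and 1 in H7, 964 to 1298 limma calls, 929 to 1282 with ARPE-19 higher and 11 to 35 with H7 higher, 22 without ARPE-19 replicate 2 and 35 without ARPE-19 replicate 3. The FOSL1 difference ranged from -0.333, without ARPE-19 replicate 3, to 1.67, without ARPE-19 replicate 2. The log2 ratio of the share changed sign among the settings, from -0.74 with a -log10 q of at least 5 to 0.37 without H7 replicate 3. Deviations of same-numbered libraries correlated at -0.014, 0.018 and -0.019 over 1538 regions. No pairing by number was seen, though counting error in the summit reads could hide a shared batch. With the replicate block limma made 1020 calls, and the log2 ratio of peaks was 2.07.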
